A study of Mus musculus with 6 samples.

Results

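DNA methylation at the promoters of the insulin receptor gene Insr, the adaptor genes Irs1 and Irs2 and the transcription factor gene Foxo1 was examined in offspring liver of mice aged 32 weeks. Members were the array probes whose start lies in 1 of 4 promoter windows on mouse genome build mm9, with 9 probes for Insr, 6 for Irs1, 15 for Irs2 and 8 for Foxo1. These 38 probes were part of 174638 probes on the array that are not controls, and 0 of the 38 carried a spot flag. The dams of one group had received chromium-restricted food (chromium is a trace metal) and those of the other a control diet, with 3 arrays each. Strain, sex, litter and whether tissue was pooled are not given in the labels, so the p-values cover the spread among these samples alone, which may be technical. Title and tissue labels name liver for all 6 samples, whereas the extraction label names fat. Marker genes of liver and fat were not analysed here, since the array files name probes by position only.

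Insulin signalling begins when insulin binds its receptor, a tyrosine kinase at the cell surface. The receptor phosphorylates the adaptor proteins IRS1 and IRS2, which recruit phosphoinositide 3-kinase and so activate the kinase AKT. AKT phosphorylates FOXO1 and keeps it out of the nucleus; in the fasted liver FOXO1 is nuclear and drives genes of glucose production, and Irs2 is itself one of its known targets. Methylation of CpG dinucleotides in a promoter often accompanies low transcription, and promoters rich in CpG are mostly unmethylated in normal tissue.

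The sequences just before the gene starts are shown because the assay reads methylated CpG, and these stretches show how many CpG the promoters hold. They are the 250 bases before the start, from RefSeq on build GRCm38.p6, written 5′ to 3′ on the strand of the gene, with each CpG in capitals. The Irs1 stretch is chr1:82291440-82291689 on the minus strand, that of Irs2 is chr8:11008930-11009179 on the minus strand, and that of Foxo1 is chr3:52268087-52268336 on the plus strand.
Irs1: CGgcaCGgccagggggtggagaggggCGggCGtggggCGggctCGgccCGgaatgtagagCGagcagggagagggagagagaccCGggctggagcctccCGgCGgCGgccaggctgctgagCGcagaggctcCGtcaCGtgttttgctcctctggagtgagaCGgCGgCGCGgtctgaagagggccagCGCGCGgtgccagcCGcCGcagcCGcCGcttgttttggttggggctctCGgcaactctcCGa
Irs2: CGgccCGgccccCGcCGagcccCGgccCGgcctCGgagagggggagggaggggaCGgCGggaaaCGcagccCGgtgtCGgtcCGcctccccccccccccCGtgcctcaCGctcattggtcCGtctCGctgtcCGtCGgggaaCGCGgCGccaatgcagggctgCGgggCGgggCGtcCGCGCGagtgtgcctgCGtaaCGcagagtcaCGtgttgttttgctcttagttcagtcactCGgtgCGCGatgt
Foxo1: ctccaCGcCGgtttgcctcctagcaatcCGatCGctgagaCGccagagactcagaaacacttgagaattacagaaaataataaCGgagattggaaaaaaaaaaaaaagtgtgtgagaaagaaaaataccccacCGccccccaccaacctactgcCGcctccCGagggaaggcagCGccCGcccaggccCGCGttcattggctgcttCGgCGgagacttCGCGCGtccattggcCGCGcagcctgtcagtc
The table held sequences for 3 of the 4 members. Probe positions are on mm9, so the probes were not placed on these stretches.

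The Irs2 stretch held 34 CpG, that of Irs1 28 and that of Foxo1 20, against a median of 6 over 32851 promoters of the same length. The observed over expected ratio of CpG was 1.03 for Irs2, 0.896 for Irs1 and 1.04 for Foxo1. In CpG count, 96.5% of promoters lay below Irs2, 92.4% below Irs1 and 82.1% below Foxo1. The motif CACGTG, an E-box that reads the same on both strands and has a CpG at its centre, occurred once in Irs1, beginning 115 bases before the start, and once in Irs2, beginning 44 bases before the start. It was present in 6.02% of all promoters of this length. The longest runs shared by the Irs1 and Irs2 stretches on the same strand were 10 bases long, and 1 of them held the E-box:
Shared run in Irs1 and Irs2: gtCACGTGtt
The forkhead motif GTAAACA, searched on both strands, was not in these 3 windows and was present in 3.17% of all promoters. CCAAT on either strand occurred 3 times in Foxo1, 2 times in Irs2 and 0 times in Irs1, and 33.8% of all promoters held it. The motifs were picked after the sequences had been read, and matches are descriptions of the letters.

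Methylation was measured by methylated DNA immunoprecipitation on a two-colour array, in which an antibody enriches fragments with methylated cytosine. Each value is the log2 ratio of the immunoprecipitated (IP) signal over the input signal of the same spot, centred on the median of all probes of its array, so 0 is the typical probe. A higher ratio is taken as more methylated DNA, but the ratio also depends on CpG density and on how well a probe hybridises, so levels of different probes are given as a description. Median input brightness ranged from 38.1 to 98.4 scanner units over the 6 arrays, and median IP brightness from 98.5 to 143. Arrays of the same replicate number shared a scan. Diet cannot be told apart from the place on the slide, which was position 2 for each chromium-restricted and position 4 for each control sample. Of the 38 probes, 32 (84.2%) had IP and input signals well above background on every array, against 67.5% of the 174278 probes without a spot flag.

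No difference between the diet groups passed a test at any of the 4 promoters, and levels rose and fell along each window in much the same pattern in both groups. The window means differed by 0.0063 for Insr, 0.033 for Irs1, 0.13 for Irs2 and 0.085 for Foxo1 on the log2 scale, chromium-restricted minus control, and the exact permutation p adjusted over the 4 was 0.9 for each. With limma and Benjamini-Hochberg adjustment over all probes, 0 of the 38 member probes passed 0.05, beside 0% of all 174278 probes. At an unadjusted limma p under 0.05 the count was 0 of 38, beside 1.30% of all probes, and 0 of 4 windows, beside 0.896% of all regions. The diet groups overlapped at each of the 38 probes: 0 had all arrays of one group above all of the other, beside 4.27% of all probes (2.13% with the chromium-restricted group higher and 2.14% with it lower). They overlapped in the 4 window means too, where 4.44% of regions did not. The chromium-restricted mean was the higher at 26 of 38 probes and the lower at 12, beside 49.5% of all probes lower, with a median difference of 0.055 against 0.0019 over all probes. The window means were lower in 0 of 4, beside 47.5% of regions, but each differed by less than the spread between arrays. The median size of the difference was 0.080 at the members and 0.099 over all probes. Neighbouring probes read overlapping DNA and are not replicates.

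Insr encodes the receptor itself, and its 9 probes covered chromosome 8 from 3279121 to 3280830. The window mean was -0.50, -0.57 and -0.49 on arrays 1, 2 and 3 of the chromium-restricted group, against -0.48, -0.58 and -0.52 in the controls, in the same order. The groups overlapped, and all 6 arrays lay within a narrow band. The groups had means of -0.52 ± 0.046 and -0.52 ± 0.051 (SD, n = 3 each; exact permutation p, two-sided, of 0.9, where 3 against 3 cannot go below 0.1). With limma over 21987 regions of neighbouring probes, the window differed by 0.0063 (SE 0.073, 95% confidence interval -0.16 to 0.17; adjusted p = 1.0), beside 0% of regions called. Within scans 1, 2 and 3 the difference was -0.018, 0.0082 and 0.029. The interval leaves room for a difference of up to 0.17.

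Along the Insr window the level changed steeply. The first 3 probes had mean levels over the 6 arrays of 0.67, 0.95 and 0.89, the next 3 fell away to -1.02, -2.80 and -3.41, and probe 7 stood at 1.42 before probe 8 at -1.84 and probe 9 at 0.45. The lowest, probe 6 (start 3280172), read -3.34, -3.21 and -3.74 on the chromium-restricted and -3.06, -3.49 and -3.61 on the control arrays, and 1.80% of all probes lay lower. Its mean background-subtracted IP signal was 32.5 scanner units and its input signal 187. Probe 7 (start 3280378), 206 bp further on, read 1.43, 1.71 and 1.25 against 1.54, 1.15 and 1.44, above 92.4% of all probes. The rise between these neighbours was 4.83 ± 0.19 (SD over 6 arrays), and 0.656% of 152036 neighbouring pairs in regions differed by as much. Both probes were well above background in IP and input on every array. In the authors' deposited table, whose scale is not stated, probe 6 stood at -1.47 and probe 7 at 0.066.

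Probes 5 and 8 of Insr were not well above background in the IP channel on any array. No difference is drawn from either probe alone, but both enter the window mean and its difference. Input was well above background on 5 of 6 arrays for probe 5 and on 3 of 6 for probe 8. Where input was measured the ratio is at most an upper bound, and where both channels were dim it bounds nothing. Probe 5 (start 3279966), where the group means lay farthest apart, read -2.98 ± 0.23 against -2.62 ± 0.48 (SD, n = 3 each). Probe 8 spread from -2.69 to -0.59 over the 3 chromium-restricted arrays and from -1.95 to -1.77 over the control arrays. Among the 7 measured probes the largest difference was 0.18 (SE 0.18; limma unadjusted p = 0.359) at probe 1 (start 3279121), a probe named after its value was seen. It was 0.55, -0.23 and 0.22 within scans 1, 2 and 3, and leaving out 1 array gave 0.055 (without control array 1) to 0.30 (without chromium-restricted array 2). Without these 2 dim probes the Insr window had a mean of -0.0072 in place of -0.52. With only bright probes kept, its difference was 0.053 in place of 0.0063 (exact permutation p, two-sided, of 0.7).

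Irs1, whose product is an adaptor that docks on the activated receptor, was covered by 6 probes on chromosome 1 from 82287606 to 82289077. The window mean was -0.19, -0.25 and -0.35 on the chromium-restricted arrays and -0.18, -0.48 and -0.24 on the control arrays. Control array 2 was the lowest of the 6 and control array 1 the highest. The groups had means of -0.27 ± 0.080 and -0.30 ± 0.16 (SD, n = 3 each; exact permutation p, two-sided, of 0.9). In limma the difference was 0.033 (SE 0.099, 95% confidence interval -0.19 to 0.26; adjusted p = 1.0). Within scans 1, 2 and 3 it was -0.017, 0.23 and -0.11, so its sign depended on the scan.

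The highest Irs1 probe was number 5 (start 82288769). It read 1.83, 1.76 and 1.91 on the chromium-restricted arrays and 1.89, 1.79 and 1.87 on the control arrays. These 6 values lay closer together than those of most probes: the SD within groups was 0.063, and 2.07% of all probes had a smaller one. The level was above 97.4% of all probes, with an IP signal of 425 and an input signal of 67.5 scanner units. Probes 1, 2 and 4 lay near the middle, with mean levels of -0.20, 0.27 and -0.33. The lowest, probe 6 (start 82289020), read -1.29, -2.61 and -1.11 against -2.47, -1.24 and -1.78, and its IP signal was not well above background on any array. The lowest level that was measured on all arrays was that of probe 3 (start 82288286). That probe also had the largest difference of the window, with -1.62 ± 0.28 against -1.43 ± 0.46 (SD, n = 3 each), or -0.20 (SE 0.27; limma unadjusted p = 0.488, adjusted p = 1.0). The 2 groups overlapped there, and the difference shrank to -0.039 when chromium-restricted array 3 was left out and to -0.022 when control array 1 was.

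Irs2 encodes the adaptor that, together with IRS1, passes the insulin signal on in hepatocytes. Its 15 probes on chromosome 8 from 11006558 to 11009708 made it the window with the widest cover, 3151 bp. The window mean was -0.011, 0.35 and -0.22 on the chromium-restricted arrays and 0.18, -0.34 and -0.13 on the control arrays. Chromium-restricted array 2 was the highest and control array 2 the lowest, and both came from scan 2. The groups had means of 0.038 ± 0.29 and -0.096 ± 0.27 (SD, n = 3 each; exact permutation p, two-sided, of 0.6). In limma the difference was 0.13 (SE 0.17, 95% confidence interval -0.26 to 0.53; adjusted p = 1.0). It was -0.19, 0.69 and -0.093 within scans 1, 2 and 3, and -0.020 without chromium-restricted array 2 or 0.011 without control array 2. Only scan 2 had a higher value in the chromium-restricted group.

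Along Irs2 the levels of probes 1 to 8 were 0.82, 0.63, 0.15, -0.10, 0.84, -0.14, 1.20 and 1.90, as means over the 6 arrays. Those of probes 9 to 15 were -0.62, -0.83, 1.26, -1.77, -2.90, -0.0044 and -0.87. Probe 14 lay near 0, from -0.25 to 0.25 over the arrays, with its input well above background on 3 of 6. From probe 11 to probe 12, 201 bp away, the level fell by 3.03 ± 0.24 (SD over 6 arrays). This was the largest step of the window, and 7.73% of neighbouring pairs in regions differed by as much. The highest ratio of the window was that of probe 8 (start 11008059). Its values were 2.07, 3.00 and 1.08 on the chromium-restricted arrays and 1.84, 1.71 and 1.70 on the control arrays, and its input signal was well above background on 3 of 6 arrays. With normexp it stood at 0.72, below probe 11 at 1.54 and probe 7 at 1.45, and in the authors' deposited table at 0.89, below probe 7 at 1.25. The lowest was probe 13 (start 11009230), with -2.96, -2.38 and -3.43 against -2.52, -3.37 and -2.76, and 3.19% of all probes lay lower. It was bright in both channels, with an IP signal of 363 and an input signal of 1473 scanner units.

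The member probe with the largest difference was Irs2 probe 12 (start 11008972, end 11009016). It read -1.55, -1.29 and -1.82 on the chromium-restricted arrays and -1.73, -2.23 and -1.98 on the control arrays. Chromium-restricted array 3 lay below control array 1, so the groups overlapped. The means were -1.55 ± 0.26 and -1.98 ± 0.25 (SD, n = 3 each), a difference of 0.43 (SE 0.20, 95% confidence interval -0.05 to 0.91; limma unadjusted p = 0.0726, adjusted p = 1.0). It was higher in the chromium-restricted array in each of the 3 scans, by 0.18, 0.94 and 0.16, and leaving out 1 array gave 0.30 to 0.56. The difference was 0.25 with normexp background correction and 0.21 in the authors' deposited table. Its neighbours differed by 0.42 at probe 9, 0.37 at probe 10, 0.037 at probe 11 and -0.041 at probe 13, and none of these passed the test. Probe 5, with a difference of 0.41, was not well above background in either channel on any array.

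Foxo1, which encodes the transcription factor held out of the nucleus by AKT, was covered by 8 probes on chromosome 3 from 52070967 to 52072675, each with IP and input well above background throughout. The window mean was -0.71, -0.61 and -0.85 on the chromium-restricted arrays and -0.46, -1.07 and -0.89 on the control arrays. The control arrays held both the highest and the lowest value. The groups had means of -0.72 ± 0.12 and -0.81 ± 0.31 (SD, n = 3 each; exact permutation p, two-sided, of 0.7). In limma the difference was 0.085 (SE 0.15, 95% confidence interval -0.26 to 0.43; adjusted p = 1.0). Within scans 1, 2 and 3 it was -0.25, 0.46 and 0.042, and it was -0.046 without control array 2 and 0.26 without control array 1.

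Of the 8 Foxo1 probes, 6 had a mean level below 0. The first 6 read -1.49, -0.11, 0.0054, -1.35, -1.70 and -0.70 as means over the 6 arrays. The highest, probe 7 (start 52072358), read 1.56, 1.64 and 1.36 on the chromium-restricted arrays and 1.61, 0.79 and 1.27 on the control arrays. It also had the largest difference of the window, 0.30 (SE 0.23, 95% confidence interval -0.24 to 0.83; limma unadjusted p = 0.236, adjusted p = 1.0), which was 0.080 without control array 2. The lowest, probe 8 (start 52072631), lay 273 bp further on and read -2.23, -1.53 and -2.28 against -1.42, -2.89 and -2.51. The fall from probe 7 to probe 8 was present on every array and had a mean of -3.51 ± 0.33 (SD over 6 arrays). It was the largest step of the window, and 4.32% of neighbouring pairs in regions differed by as much. The groups overlapped at both probes.

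The windows kept nearly the same order on every array. From low to high the means over the 6 arrays were -0.76 for Foxo1, -0.52 for Insr, -0.28 for Irs1 and -0.029 for Irs2. Insr lay below Irs1 and Irs1 below Irs2 on 6 of 6 arrays, by 0.24 ± 0.097 and 0.25 ± 0.19 (SD over arrays). Foxo1 lay below Insr on 5 of 6 arrays, and the gap of 0.24 ± 0.20 fell to -0.016 on control array 1. Among all regions, 11.5% lay below Foxo1, 20.8% below Insr, 36.1% below Irs1 and 56.8% below Irs2. A window's place in this order rests on which probes it holds: over measured probes alone, Insr had a mean of -0.0072, Irs1 0.012, Irs2 -0.26 and Foxo1 -0.76. With normexp the means were 0.063 for Insr, 0.14 for Irs1, 0.036 for Irs2 and -0.45 for Foxo1. In the authors' deposited table they were -0.097 for Insr, 0.087 for Irs1, 0.10 for Irs2 and -0.39 for Foxo1. Foxo1 was thus the lowest in each version. The order of the others changed over measured probes and with normexp and stayed the same in the authors' table.

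Differences between probes within a window were far larger than those between diets. The range of mean levels was 4.83 in Insr, 4.81 in Irs2, 3.59 in Irs1 and 3.51 in Foxo1, against a median of 3.26 over all regions. A range depends on the number of probes, regions hold at least 3, and this median was not matched for probe number. The top of the Irs2 range and the bottom of the Irs1 range are dim probes, and over measured probes alone the range was 4.17 in Irs2 and 3.37 in Irs1. The profile over the probes of a window correlated between any pair of arrays at 0.896 to 0.996 for Insr (9 probes), 0.830 to 0.997 for Irs1 (6 probes), 0.880 to 0.973 for Irs2 (15 probes) and 0.814 to 0.986 for Foxo1 (8 probes). These correlations are over neighbouring probes of 1 window and are descriptions. A mean level under -1 was found at 12 of the 38 probes (31.6%) and at 22.2% of all probes, and a level over 1 at 6 (15.8%) and at 16.8% of all probes. The SD within groups had a median of 0.31 over the 32 probes well above background and 0.70 over the other 6.

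The spread between arrays was unequal among the promoters, and the Irs2 and Foxo1 means were higher on arrays with a brighter input by Pearson's r, though not by the adjusted rank test. The SD within groups was 0.049 for Insr, with 6.83% of regions below it, 0.13 for Irs1, 0.24 for Foxo1 and 0.28 for Irs2, the last above that of 95.1% of regions. Against the median input signal of each array on a log2 scale (n = 6), the Irs2 mean had Pearson r = 0.908 (exact permutation p = 0.0181, adjusted over 4 promoters 0.0361) and Spearman rho = 0.886 (exact permutation p = 0.0333, adjusted 0.117). For Foxo1, r was 0.908 (exact permutation p = 0.0125, adjusted 0.0361) and rho 0.829 (exact permutation p = 0.0583, adjusted 0.117). With the 2 arrays of most extreme input left out (those farthest from the median), r was 0.915 for Irs2 and 0.666 for Foxo1. Irs1 had r = 0.774 (exact permutation p = 0.0681, adjusted 0.0907) and rho = 0.771 (exact permutation p = 0.103, adjusted 0.137), and r was 0.365 without those arrays. Insr had r = 0.241 (exact permutation p = 0.632, adjusted 0.632) and rho = 0.429 (exact permutation p = 0.419, adjusted 0.419), and r turned to -0.988 without those arrays, so no relation holds there. The input signal is the denominator of the ratio, so these are not separate measures, and 33.9% of all regions had an r above 0.8 in size. Over all regions the median r was -0.385, opposite in sign to that of the 4 promoters.

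Within scans the median difference of the 38 probes had the sign of the difference in input. In scan 2 the chromium-restricted array had the brighter input (83.9 against 38.1 scanner units). There 27 of the 38 probes were higher in it, beside 44.6% of all probes, with a median difference of 0.39 where all probes had -0.081. In scan 1 the chromium-restricted array had the dimmer input (53.1 against 98.4). In it 12 of 38 were higher, beside 56.0% of all probes, with a median of -0.18 where all probes had 0.049. In scan 3 the inputs were 46.1 and 60.5, and 15 of 38 were higher, beside 48.5% of all probes. The median was -0.098 where all probes had -0.012. With the log2 input signal as a covariate, an alternative added after seeing the data, the window differences were 0.0073 for Insr, 0.042 for Irs1, 0.16 for Irs2 and 0.10 for Foxo1. The part that input brightness has in the spread between arrays was not tested further.

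As a description of likeness, the region outside the windows whose 6 array values correlated most with each promoter was sought among 21983 regions. For Irs2 it was on chromosome 15 from 38229981 to 38231728 (r = 0.997), and for Foxo1 on chromosome 5 from 111238612 to 111240293 (r = 0.997). For Irs1 it lay on chromosome 3 from 121517644 to 121519373 (r = 0.998), and for Insr on chromosome 15 from 74550364 to 74552048 (r = 0.972). An r above 0.9 was reached by 938 regions (4.27%) for Irs2, 707 (3.22%) for Foxo1, 683 (3.11%) for Irs1 and 63 (0.287%) for Insr. Each named region was picked as the highest of 21983 correlations over 6 arrays, so its r is no sign of a particular link.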

How the data were processed

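Agilent Feature Extraction 11.0.1.1 made the scanner files and the design is on mm9, per the file headers. The deposited processed signals are intensity values with a local background subtracted and a linear dye factor per channel. Per the labels, the IP carried Cy5 and the input Cy3 on every array. The authors' deposited series values, read here as log2 ratios, were made by steps that no header or label records; neither log base nor centring is stated, they run with red over green, and column medians were 0.031 to 0.040.

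The log2 ratio of processed red over green was centred on each array's median, with no loess or quantile step. Left out were 5827 control spots and 360 flagged probes; saturated spots stayed. Regions were runs of at least 3 probes with starts at most 1000 bp apart, and each window was 1 region. The model, with diet as its single term, was fitted over the whole table of probes and of regions by limma 3.58.1 (R 4.3.3), with Benjamini-Hochberg adjustment, after a test on simulated data. For window means the test was the exact permutation test, two-sided. Sequences were read in Python 3.11.15. The number of arrays limits the precision.

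Members, windows and lists were chosen with earlier results of these data known. Probes were named by a rule: the highest and lowest mean level of a window, its largest absolute difference and any with an unadjusted p under 0.05. Other probes singled out lie outside it, and not all are marked so where they are named. Other insulin pathway genes and the marker genes, both planned, were not analysed here, since no annotation on mm9 was used. Alternatives were normexp (offset 50, on median spot signals), flagged spots, only bright probes, the authors' table, mean centring, a replicate block, no moderation, the median over probes, regions with starts at most 500 bp apart, each array left out and, added later, an input covariate.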

Additional observations from a re-analysis of the deposited data

How the results depend on the processing

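With limma, 0 probes and 0 regions passed the adjusted threshold under every alternative run. The window differences changed sign under some; no permutation test of them could reach 0.05 with these numbers, and none was run with the input covariate. With the median over probes they were -0.012 for Insr, -0.091 for Irs2 and -0.024 for Foxo1, and with normexp that of Irs1 was -0.010. Leaving out 1 array gave -0.021 to 0.033 for Insr, -0.058 to 0.095 for Irs1, -0.020 to 0.27 for Irs2 and -0.046 to 0.26 for Foxo1. Insr was below 0 without chromium-restricted array 1 (-0.0047) or 3 (-0.0092) and without control array 2 (-0.021). For Irs1 the value was -0.0030 without chromium-restricted array 1 and -0.058 with control array 2 left out. Irs2 was -0.020 without chromium-restricted array 2, and leaving out control array 2 gave -0.046 for Foxo1. The cause was not tested.

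Of the 38 member probes, the number at an unadjusted limma p under 0.05 was 0. It became 2 with normexp (Irs2 probes 9 and 12) and 1 with only bright probes (Irs2 probe 12). With the authors' table it was also 1 (Irs2 probe 9). It was 3 with the input covariate (Insr probe 5, Irs2 probe 12 and Foxo1 probe 7), beside 3.90% of all probes under that covariate. It ranged from 0 to 4 when 1 array was left out, being 3 without chromium-restricted array 3 (Insr probe 8, Irs2 probes 8 and 12), beside 1.73% of all probes, and 4 without control array 1 (Insr probe 5, Irs2 probes 10 and 12, Foxo1 probe 8), beside 2.38%. Their adjusted p in limma lay between 0.998 and 1.0. Of these probes, Insr probes 5 and 8 were not well above background in IP on any array. Irs2 probe 8 had input well above background on 3 of 6 arrays. Over all probes the count of 2259 became 441 with normexp, 863 with only bright probes and 1335 with the authors' table. It became 6805 with the input covariate and ran from 1746 to 4248 with 1 array left out. For normexp, only bright probes and the authors' table no percentage of all probes was worked out, so their member counts lack that background. The bright probes were a smaller set, with 117566 of the 174278 probes and 32 of the 38 members. The 197 regions became 37 with normexp, 94 with only bright probes, 112 with the replicate block, 436 with no moderation and 848 with the input covariate, and ran from 119 to 558 with 1 array left out.

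Same-numbered arrays deviated together with correlations of 0.145, -0.591 and 0.197, so the numbers mark a shared scan and were not taken as pairs. With the replicate block the window differences keep their values by construction, with sign-flip permutation p of 0.75 for Insr, 1 for Irs1, 1 for Irs2 and 0.75 for Foxo1 (smallest possible 0.25), and 0 probes and 0 regions passed.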

Other observations

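The single high probes next to low ones looked different in the authors' deposited table, whose log base and any smoothing are not stated. Insr probe 7, at 1.42 here and 1.53 with normexp, stood at 0.066 there, while its neighbours, probes 6 and 8, stood at -1.47 and -0.29. Irs2 probe 11, at 1.26 here and 1.54 with normexp, stood at 0.51, and Foxo1 probe 7, at 1.37 here and 1.16 with normexp, at 0.67. The rise between Insr probes 6 and 7 was present in the scanner signals of all 6 arrays.

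Irs2 probes 9, 10 and 12 were all picked for their differences in these data, probe 12 by the naming rule and probes 9 and 10 outside it. They differed in the same direction in the authors' table, by 0.35, 0.27 and 0.21, and with normexp, by 0.47, 0.24 and 0.25. Within scans 1, 2 and 3 probe 9 differed by 0.27, 1.24 and -0.24, and probe 10 by -0.35, 1.01 and 0.44, so both changed sign between scans. Without control array 2 the difference at probe 9 was 0.16, and without control array 3 that at probe 10 was 0.11. The same arrays lie behind all 3 versions, so this is no separate support.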
